A study of Acomys cahirinus and Mus musculus with 24 samples.

Results

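The elastic fibre genes of healing dorsal skin were examined here: Eln, Fbn1, Fbn2, Fbln1, Fbln2, Fbln5, Efemp1, Efemp2, Mfap4 and Mfap5, taken by symbol from the deposited counts. Of these 10 genes, 9 are among the 14514 genes of the count table shared by both species. Mfap4 is not listed by that symbol there or in the Acomys table, and its values come from the Mus table. The study sequenced RNA from dorsal skin of adult Mus musculus of the outbred CD-1 stock and of adult Acomys cahirinus, a spiny mouse known for replacing injured skin with little scar. In both species, unwounded skin (day 0) was set against full-thickness excisional wounds, 8 mm across when made, collected after 7 or 14 days. Each species and day had 4 libraries, except Mus day 0 with 3 (replicates 1, 2 and 4), because replicate 3 was removed by the submitters for poor quality. No transgene, drug or other treatment is named for any group, so a comparison between the species carries every difference between them.

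Elastic fibres let skin recoil after stretch. Fibroblasts and smooth muscle cells secrete tropoelastin, the product of Eln, whose molecules are joined into an insoluble core by enzymes of the lysyl oxidase family. The core forms on a scaffold of microfibrils built from the fibrillins, Fbn1 and Fbn2, which carry small associated glycoproteins such as Mfap4 and Mfap5. Fibulins bridge the core and the scaffold: Fbln5 and Efemp2 (fibulin-4) are needed for elastic fibre assembly, Efemp2 also brings lysyl oxidase to tropoelastin, and Fbln1, Fbln2 and Efemp1 (fibulin-3) are found in elastic tissues and basement membranes. Scars of adult skin are known for having few or disordered elastic fibres.

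The coding sequences of these genes differ in the motifs that they encode, and stretches that carry such motifs are shown as a description. They come from the principal mouse transcripts of GENCODE vM21 on GRCm38, a later build than the submitters' mm9, and are written 5′ to 3′ on the coding strand. Tropoelastin is crosslinked at pairs of lysines set in alanine runs. A search for lysine codons with 2 or 3 alanine codons between them found 12 such pairs in Eln and 0 in each of the other 9 genes. The window around the first pair with 3 alanine codons in Eln (codon 123 of 860, exon 7 of 37, chr5:134729649-134729663, minus strand) has these 5 codons in capitals.
Eln: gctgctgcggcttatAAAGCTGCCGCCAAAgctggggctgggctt
Of the Eln codons, 76.86% encode glycine, valine, alanine or proline and 0.23% encode cysteine, whereas cysteine takes 12.57% of the codons of Fbn1. Arg-Gly-Asp, a tripeptide that integrins can bind, is encoded in Fbn1 (codon 1543 of 2873, exon 37, chr2:125345973-125345981, minus strand), Fbln2 (codon 421 of 1221, exon 2, chr6:91234336-91234344, plus strand) and Fbln5 (codon 54 of 448, exon 4, chr12:101809927-101809935, minus strand). It is also encoded in Mfap4 (codon 28 of 257, exon 2, chr11:61485796-61485804, plus strand), in Mfap5 (codon 30 of 164, across exons 3 and 4, chr6:122515377-122520580, plus strand) and at 2 places in Fbn2, whose sequence is not printed. In the windows that follow its codons are in capitals.
Fbn1: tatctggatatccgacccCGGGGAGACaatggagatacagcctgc
Fbln2: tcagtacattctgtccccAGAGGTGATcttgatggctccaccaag
Fbln5: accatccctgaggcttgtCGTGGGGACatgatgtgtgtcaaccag
Mfap4: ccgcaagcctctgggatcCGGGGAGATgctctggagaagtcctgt
Mfap5: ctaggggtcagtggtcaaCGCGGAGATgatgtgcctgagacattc
The 5 windows spell the same tripeptide with different codons, and none was found in Eln, Fbln1, Efemp1 or Efemp2. A codon match is a description and was not tested for binding. All 10 genes are protein-coding, and the position of Fbn2 is not printed. Eln lies at chr5:134702593-134747323, Fbn1 at chr2:125300594-125507993, Fbln1 at chr15:85205949-85286535, Fbln2 at chr6:91212455-91272540 and Fbln5 at chr12:101746565-101819055. Efemp1 lies at chr11:28853204-28926743, Efemp2 at chr19:5473954-5482517, Mfap4 at chr11:61485431-61488900 and Mfap5 at chr6:122505845-122529290.

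The shared table held 5980683 to 9853153 counts per library. Levels are given as CPM, counts scaled to one common library total, over the counts that are not spike-ins and after scaling by the trimmed mean of M-values (TMM). Fold changes, with standard errors (SE), are on the log2 scale from edgeR's quasi-likelihood test, with p-values adjusted over all 14514 genes of a comparison by the method of Benjamini and Hochberg and a threshold of 0.05. The labels do not say that the libraries came from separate animals, so a p-value measures the spread between these libraries. In bulk RNA, fewer cells of a type and less RNA per cell cannot be told apart. The 6 dermal fibroblast markers (Pdgfra, Pdgfrb, Col1a1, Col1a2, Dcn and Lum) had a sum of 64328 to 69498 CPM in Mus skin, of 31025 to 38947 in day 7 wounds and of 42538 to 63456 in day 14 wounds. In Acomys they summed to 7869.5 to 24046, 16158 to 22011 and 21832 to 38117 CPM, and Acomys day 0 replicates 2 (7869.5 CPM) and 4 (9606) were the lowest of all libraries. Taken singly, 1 was called higher and 3 lower at Mus day 7 (median log2 change -0.10), beside 27.0% and 26.7% of all genes. At Mus day 14, 3 were called higher and 0 lower (median 0.28), beside 21.6% and 22.1%, although the sum was below skin. At Acomys day 7, 4 were called higher and 0 lower, beside 30.4% and 31.4%. At Acomys day 14, 6 were called higher and 0 lower, beside 18.9% and 20.0%. Markers of smooth muscle (6 of 6 listed) summed to 922 to 1136, 369 to 762 and 220.00 to 416 CPM at Mus days 0, 7 and 14 and to 866 to 1285, 587 to 897 and 651 to 776 in Acomys. The skeletal muscle markers Ckm, Acta1, Myh4 and Tnnt3 (4 of 5 listed) summed to 22.7 CPM in Mus day 7 replicate 3, 9.12 in Mus day 14 replicate 2 and 21.3 in replicate 3, against 8809 to 10059.5 in Mus skin, so each comparison was repeated without these 3 muscle-poor libraries. No listed marker of these 3 lists was at 0 in any library. The tissue is labelled dermal skin, and markers of the epidermis (Krt5, Krt14, Krt10 and Krt1) were present in every group, from 879.7 to 12097.5 CPM in sum. A level compared between the species also carries any difference in gene model. The longest match of the Acomys assembly to elastin covers 251 residues (29.2% of the mouse coding length). The longest match to Efemp2 covers 63.2% and that to Mfap5 83.5%, while those of the other 6 genes in the shared table cover 96.7% or more. All matches together cover 392 residues of elastin, 443 of Efemp2 and 137 of Mfap5, beside 860, 443 and 164 mouse codons. A difference of changes (the wound against skin change of Acomys minus that of Mus) does not carry a gene-model difference that is constant over days, a condition that the Acomys counts of Mfap5 did not meet. The share of the Acomys table's counts kept in the shared table also shifted between days, by less, for Efemp2, Fbn1, Fbn2, Fbln2 and Fbln5. For Efemp2 it was 0.695 to 0.702 in skin and 0.731 to 0.755 in wounds. For Fbln5 it was 0.636 to 0.672 at day 7 and 0.726 to 0.75 at day 14.

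Within Mus, the 10 genes can be ordered by CPM per kilobase of transcript, from the Mus table and the lengths of GENCODE vM21. In unwounded skin Mfap4 led with 125 ± 18.6 CPM per kilobase (SD, n = 3), followed by Fbn1 at 81.9 ± 11.7 and Fbln2 at 54.6 ± 1.78. Each of these exceeded the next without overlap between libraries. Efemp1 (29.7 ± 1.80), Fbln1 (27.8 ± 4.58) and Eln (21.8 ± 0.806) came next, with overlapping neighbours, and Mfap5 (6.52 ± 0.370), Efemp2 (5.33 ± 0.362), Fbln5 (4.85 ± 0.412) and Fbn2 (1.27 ± 0.338) were lowest. At day 7 Fbn1 (208 ± 61.7 CPM per kilobase, SD, n = 4) and Fbln2 (191 ± 44.1) overlapped at the top, and Eln (11.7 ± 6.21) and Fbln5 (9.12 ± 1.02) overlapped at the bottom. At day 14 Fbn1 stood alone at 419 ± 100.5, and Fbln2 (232 ± 45.9), Mfap4 (183 ± 57.2) and Mfap5 (158 ± 44.9) followed with overlapping neighbours. The other 6 genes, from Efemp1 (69.9 ± 21.4) to Fbln1 (18.3 ± 2.14), formed an unbroken run of overlaps, in which Eln (30.9 ± 19.3) was below Fbn2 and above Efemp2. On this per-length scale the mouse wounds had Fbn1 first and Eln among the lower genes at both days.

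Eln, the core of the fibre, rose in Acomys wounds between days 7 and 14 to a level well above that of Acomys skin, and its change from skin to day 14 differed between the species. Acomys skin held 38.2, 16.9, 40.2 and 23.6 CPM in replicates 1 to 4, day 7 wounds held 23.9, 12.4, 22.8 and 17.7, and day 14 wounds held 123, 145, 199.9 and 292. All 4 day 14 libraries were above all 8 earlier ones, while days 0 and 7 overlapped. The day 14 change from skin was 2.68 ± 0.45 (adjusted p = 9.84e-05), a 6.39-fold rise, and that from day 7 was 3.30 ± 0.46 (adjusted p = 1.18e-05). The day 7 change from skin did not pass the test, at -0.63 ± 0.45 (adjusted p = 0.233).

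In Mus, Eln stood at 94.8, 86.9 and 85.5 CPM in skin replicates 1, 2 and 4, at 82.9, 52.5, 25.8 and 33.6 in day 7 wounds and at 214, 188, 62.8 and 61.5 in day 14 wounds. All 4 day 7 libraries were below the 3 of skin, and the day 14 libraries split around skin, with replicates 1 and 2 above it and 3 and 4 below it. Neither wound day differed from skin by the test: the change was -0.87 ± 0.46 (adjusted p = 0.12) at day 7 and 0.56 ± 0.46 (adjusted p = 0.348) at day 14. Without Mus day 7 replicate 1, the highest of its group, the day 7 change passed (-1.26, adjusted p = 0.0357). From day 7 to day 14 Eln rose by 1.43 ± 0.43 (adjusted p = 0.0227), a call that did not hold without replicate 3 or 4 of Mus day 7, or replicate 1 or 2 of Mus day 14 (adjusted p = 0.0681 to 0.0914), with the 3 muscle-poor libraries left out (adjusted p = 0.0787) in the Mus table (0.062) and with the other groups left out of the fit (0.0965). In Mus day 14 replicates 1 to 4, smooth muscle markers summed to 416, 262, 220.00 and 353 CPM and skeletal muscle markers to 4998, 9.12, 21.3 and 1197. Neither sum placed replicates 1 and 2 above replicates 3 and 4. Keratinocyte markers summed to 6344, 6686, 11747 and 7255 CPM, lower in replicates 1 and 2. The neutrophil markers S100a8, S100a9 and Csf3r did so too, with 168, 81.7, 284 and 259 CPM. Sums of dermal fibroblast, endothelial, macrophage and adipocyte markers did not separate replicates 1 and 2 from 3 and 4. The part of these cell types in the Eln values was not tested.

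The skin to day 14 change of Eln was larger in Acomys than in Mus by 2.11 ± 0.63 (adjusted p = 0.0183). Leaving out any 1 of the libraries of these 4 groups kept it at 1.83 to 2.45, with adjusted p of 0.00727 to 0.041. The day 7 to day 14 change was also larger in Acomys, by 1.87 ± 0.61 (adjusted p = 0.0338), but this call was lost without any 1 of 8 libraries, namely replicate 1 or 2 of Mus day 7, or replicate 3 or 4 of Mus day 14, or replicate 2 or 4 of Acomys day 7, or replicate 3 or 4 of Acomys day 14 (adjusted p = 0.053 to 0.0924), and with the other groups left out of the fit (adjusted p = 0.0631). At day 7 the changes from skin differed by 0.24 ± 0.64 (adjusted p = 0.816). As levels, Acomys skin had less Eln than Mus skin (-1.58 ± 0.46, adjusted p = 0.00571) and day 7 wounds did too (-1.34 ± 0.45, adjusted p = 0.0117), which did not hold without replicate 1 of Mus day 7 (adjusted p = 0.0698). At day 14 the levels overlapped, with a difference of 0.53 ± 0.42 (adjusted p = 0.261). Dermal fibroblast markers in Acomys were also highest at day 14, at 21832 to 38117 CPM against 7869.5 to 24046 in skin and 16158 to 22011 at day 7. Between Acomys days 7 and 14, when Eln rose, other cell type markers moved as well. The 4 listed skeletal muscle markers summed to 687 to 1241 CPM at day 7 and 4371 to 9183 at day 14, with 3 of 4 called higher, and to 4016 to 10232 in skin. The 4 adipocyte markers summed to 33.9 to 47.6 CPM at day 7 and 125 to 200.5 at day 14, with 3 of 4 called higher, and to 645 to 1022 in skin. Of the 6 smooth muscle markers 3 were called higher and 2 lower. In this comparison 22.6% of all genes were called higher and 21.8% lower. The part of these markers in the Eln changes was not tested.

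**Figure D1:**
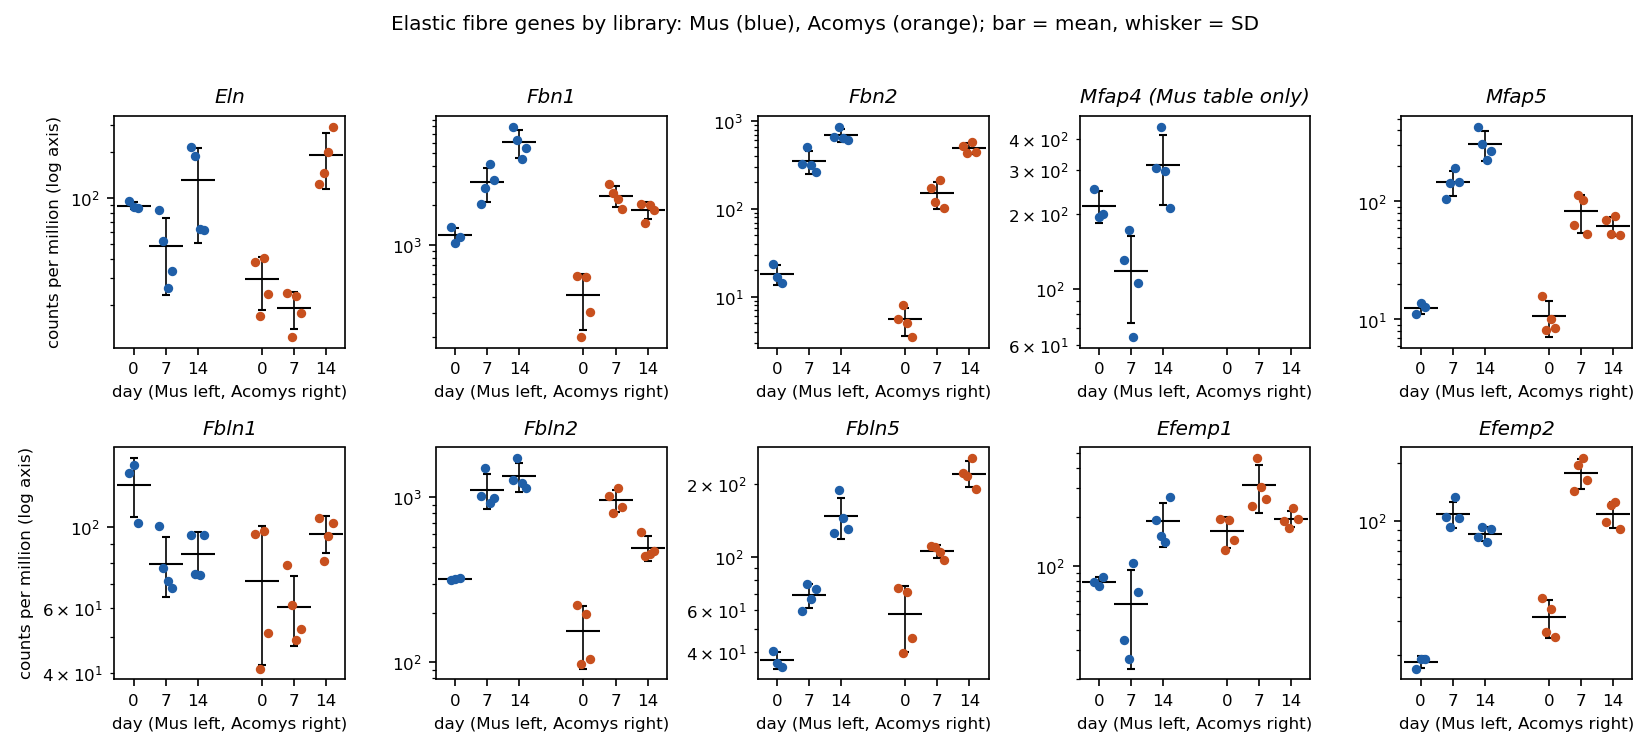
CPM on a log axis in every library (points) of each species at days 0, 7 and 14, 1 panel a gene, with the group mean as a bar and the SD as whiskers, and Mfap4 from the Mus table alone. Eln in Acomys is low at days 0 and 7 and high in all 4 day 14 libraries, whereas Eln in Mus day 14 wounds lies on both sides of skin.

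Fbn1, the main fibrillin of adult tissue, rose in the wounds of both species, but on a different schedule. Mus skin held 1371, 1037 and 1144 CPM, day 7 wounds 2044, 2723, 4118 and 3119.6 and day 14 wounds 7979.7, 6334, 4480.1 and 5496, so that the 3 days did not overlap and each was above the one before. The Mus change from skin was 1.34 ± 0.30 (adjusted p = 8.10e-04) at day 7 and 2.36 ± 0.32 (adjusted p = 4.00e-06) at day 14, with a further rise between them of 1.02 ± 0.27 (adjusted p = 0.00978). Acomys skin held 583, 198, 564 and 308 CPM, day 7 wounds 2935, 2463, 2241 and 1861 and day 14 wounds 2044, 1469, 2029 and 1855. The Acomys wound days overlapped each other and both lay above skin, by 2.52 ± 0.29 (adjusted p = 1.43e-07) and 2.16 ± 0.28 (adjusted p = 3.67e-06), and the change between them was -0.36 ± 0.27 (adjusted p = 0.299). Acomys day 0 replicates 2 and 4, low in fibroblast markers, were also the lowest for Fbn1. Within Acomys skin they were likewise lowest for Eln, Fbln1, Fbln2, Fbln5, Efemp1, Efemp2 and Mfap5. Fbn2 went the other way in replicate 2, the highest of Acomys skin. The elastic fibre genes of the shared table summed to 560 and 715 CPM in replicates 2 and 4. In replicates 1 and 3 they summed to 1268 and 1211 CPM. Changes from Acomys skin with replicates 2 and 4 left out together were not tested.

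The day 7 change of Fbn1 was larger in Acomys by 1.18 ± 0.40 (adjusted p = 0.0253), a call that did not hold without replicate 1 of Mus day 0, or replicate 1 of Mus day 7, or replicate 4 of Acomys day 0 (adjusted p = 0.0505 to 0.0674). The change from day 7 to day 14 was smaller in Acomys, with a difference of -1.38 ± 0.39 (adjusted p = 0.0131), and the changes from skin to day 14 differed by -0.20 ± 0.40 (adjusted p = 0.767). As a level, Fbn1 was lower in Acomys skin (-1.52 ± 0.29, adjusted p = 1.14e-04) and day 14 wounds (-1.72 ± 0.28, adjusted p = 1.30e-05), and day 7 wounds overlapped (-0.34 ± 0.27, adjusted p = 0.273).

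Fbn2, the fibrillin best known from development, had the largest rise of the 9 genes of the shared table in both species and at both days. It stood at 23.7, 16.7 and 14.502 CPM in Mus skin and at 5.54, 8.08, 5.01 and 3.48 in Acomys skin. Day 7 wounds held 320.1, 500.1, 318 and 265 CPM in Mus and 171, 120.5, 216 and 102 in Acomys. By day 14 the Mus libraries held 654, 865, 634 and 604 CPM and the Acomys libraries 520.2, 431, 578 and 443. No wound library of either species overlapped its skin, and day 14 lay above day 7 in each. The Mus change was 4.27 ± 0.31 (adjusted p = 5.89e-10), a 19.2-fold rise, at day 7 and 5.24 ± 0.32 (adjusted p = 1.54e-10), or 37.8-fold, at day 14. In Acomys it was 4.79 ± 0.29 (adjusted p = 2.28e-11), 27.6-fold, and 6.48 ± 0.31 (adjusted p = 1.16e-11), 89.2-fold. The rise from day 7 to day 14 was 0.97 ± 0.24 (adjusted p = 0.00495) in Mus, lost with the 3 muscle-poor libraries left out (adjusted p = 0.0707), and 1.69 ± 0.24 (adjusted p = 9.41e-06) in Acomys.

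The skin to day 14 change of Fbn2 was larger in Acomys by 1.24 ± 0.38 (adjusted p = 0.0196), lost without Mus day 0 replicate 1 (adjusted p = 0.0742). At day 7 it differed by 0.52 ± 0.38 (adjusted p = 0.3), and from day 7 to day 14 by 0.72 ± 0.33 (adjusted p = 0.13). The Acomys level was below that of Mus in skin (-1.72 ± 0.29, adjusted p = 2.99e-05) and at day 7 (-1.20 ± 0.24, adjusted p = 1.40e-04), and the day 14 difference was -0.48 ± 0.24 (adjusted p = 0.0706), although the day 14 libraries of the species did not overlap and the difference passed with the other groups left out of the fit (adjusted p = 0.0108).

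The counts of these genes were also set against each other within each library, without a correction for length, so that a ratio can be read between days of 1 species only. The Eln to Fbn1 ratio in Mus averaged 0.0759 ± 0.00740 (SD, n = 3) in skin, 0.0192 ± 0.0152 (n = 4) at day 7 and 0.0204 ± 0.00920 (n = 4) at day 14, below skin in all 8 wound libraries. In Acomys it averaged 0.0747 ± 0.00846 (SD, n = 4) in skin, 0.00821 ± 0.00229 at day 7 and 0.104 ± 0.0402 at day 14. Its 4 Acomys day 14 values, 0.0601, 0.0986, 0.0985 and 0.158, ran from just below the skin values (0.0655, 0.0854, 0.0713 and 0.0767) to above them, and the day 7 values, 0.00814, 0.00502, 0.0102 and 0.00953, were all below both. Fbn2 made up 1.51 ± 0.231% of the fibrillin counts in Mus skin, 11.01 ± 4.15% at day 7 and 10.5 ± 2.22% at day 14. In Acomys the share was 1.72 ± 1.47%, 6.04 ± 1.86% and 21.1 ± 1.59%, with 20.3, 22.7, 22.2 and 19.3% in the 4 day 14 libraries. Summed over the 9 genes, Mus held 1889 ± 179 CPM in skin, 4971 ± 858 at day 7 and 9047 ± 1786 at day 14. Acomys held 938 ± 354, 4248 ± 547 and 3712 ± 417. Fbn1 alone made up on average 62.5, 59.6 and 66.7% of this sum in Mus and 42.7, 55.7 and 49.7% in Acomys. These ratios and sums were not tested.

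**Figure D2:**
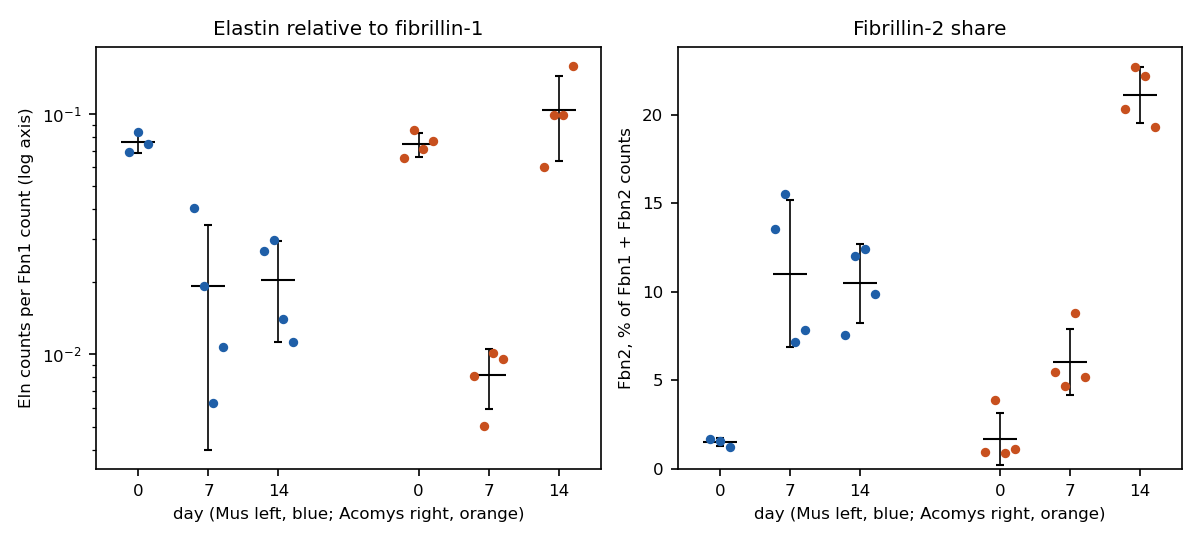
Ratio of Eln to Fbn1 counts and Fbn2 as a percent of fibrillin counts, per library (points) with group means (bars) and SD (whiskers), by species and day; the ratio has a log axis. The Eln to Fbn1 ratio is below skin in all 8 Mus wound libraries, and at Acomys day 14 it runs from 0.0601 to 0.158, around and above the values of Acomys skin.

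Mfap5, a microfibril glycoprotein that binds fibrillins and carries an Arg-Gly-Asp, rose in both species, and its day 14 change was larger in Mus. Mus skin held 11.1, 13.7 and 12.9 CPM, day 7 wounds 104, 144, 192 and 146 and day 14 wounds 432, 307, 227 and 269. Acomys skin held 15.9, 8.21, 10.03 and 8.54 CPM, day 7 wounds 63.8, 114, 103 and 53.5 and day 14 wounds 69.3, 53.4, 74.9 and 52.4. The 3 days of Mus did not overlap, whereas the 2 wound days of Acomys did. The Mus change was 3.54 ± 0.32 (adjusted p = 1.22e-08) at day 7 and 4.62 ± 0.33 (adjusted p = 1.51e-09), or 24.5-fold, at day 14, with 1.07 ± 0.25 (adjusted p = 0.00355) between them. The Acomys change was 2.96 ± 0.28 (adjusted p = 1.33e-08) at day 7 and 2.54 ± 0.28 (adjusted p = 4.64e-07), or 5.82-fold, at day 14, and -0.42 ± 0.25 (adjusted p = 0.182) between them. Mfap5 thus rose further in Mus after day 7 and had no called change after day 7 in Acomys. The difference of the day 14 changes was -2.07 ± 0.40 (adjusted p = 7.83e-04), and it stayed at -2.20 to -1.81 whichever 1 library of these 4 groups was left out. The changes from day 7 to day 14 differed by -1.49 ± 0.35 (adjusted p = 0.00423) and those from skin to day 7 by -0.58 ± 0.40 (adjusted p = 0.271). Skin levels of the species overlapped (-0.23 ± 0.31, adjusted p = 0.527). The Acomys level was lower at day 7 (-0.81 ± 0.25, adjusted p = 0.00663), with overlapping libraries, and at day 14 (-2.30 ± 0.26, adjusted p = 1.18e-07), without overlap. The Acomys changes of Mfap5 depended on the table. The shared table kept 0.355 to 0.478 of the Acomys table's Mfap5 counts in the skin libraries, 0.636 to 0.717 at day 7 and 0.629 to 0.673 at day 14, so skin lay below every wound library in this share, whereas the Mus libraries kept 0.712 to 0.784. In the Acomys table the rise was 2.33 ± 0.23 (adjusted p = 1.33e-06), or 5.01-fold, at day 7 and 1.97 ± 0.23 (adjusted p = 2.41e-05), or 3.92-fold, at day 14, against 7.79-fold and 5.82-fold in the shared table. This loss was not constant over days, so it enters the Acomys changes from skin, the skin levels and the differences of changes from skin given here for Mfap5. In the Mus table the rise was 3.56 ± 0.27 (adjusted p = 2.39e-06), or 11.8-fold, at day 7 and 4.60 ± 0.28 (adjusted p = 1.38e-06), or 24.2-fold, at day 14. The species tables were normalized separately, so the difference between them was not tested.

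Mfap4, a fibrinogen-like microfibril protein of skin, could be followed in Mus only. Its CPM in the Mus table was 253, 195 and 200.03 in skin, 131, 173, 64.4 and 106 at day 7 and 307, 449, 296 and 211 at day 14. Day 7 lay below both other days, and day 14 overlapped skin. The day 7 change was -0.86 ± 0.31 (adjusted p = 0.0365), in a comparison in which 28.3% of the genes of that table were called lower, and it was lost without any 1 of Mus day 0 replicates 1, 2 and 4 or Mus day 7 replicates 1, 3 and 4 (adjusted p = 0.0519 to 0.117). From day 7 to day 14 Mfap4 rose by 1.41 ± 0.30 (adjusted p = 0.00736), where 10.7% of genes were called higher, and day 14 differed from skin by 0.55 ± 0.32 (adjusted p = 0.184).

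Fbln5, which tethers tropoelastin to microfibrils and to integrins, rose in both species at both days. It stood at 40.3, 36.1 and 34.6 CPM in Mus skin, 59.3, 76.6, 66.2 and 73.1 at day 7 and 125, 189, 145 and 130.04 at day 14. Acomys held 74.2, 39.4, 71.4 and 45.6 CPM in skin, 110.3, 109, 104 and 96.95 at day 7 and 222, 217, 258 and 191 at day 14. In each species the 3 days did not overlap. The change from skin was 0.89 ± 0.19 (adjusted p = 3.36e-04) in Mus and 0.87 ± 0.17 (adjusted p = 1.12e-04) in Acomys at day 7, and 1.99 ± 0.19 (adjusted p = 4.04e-08) and 1.94 ± 0.17 (adjusted p = 1.75e-08) at day 14. From day 7 to day 14 it was 1.10 ± 0.17 (adjusted p = 5.41e-05) in Mus and 1.08 ± 0.16 (adjusted p = 1.76e-05) in Acomys. The differences of changes were -0.03 ± 0.25 (adjusted p = 0.956) at day 7, -0.05 ± 0.24 (adjusted p = 0.921) at day 14 and -0.02 ± 0.23 (adjusted p = 0.978) between the wound days, and their signs changed when single libraries were left out. In the species tables the day 7 to day 14 change was 1.09 ± 0.14 in Mus and 0.90 ± 0.15 in Acomys. There the skin to day 7 change was 0.91 ± 0.15 in Mus and 1.01 ± 0.16 in Acomys. The species tables were normalized separately, so these differences were not tested. As a level, Fbln5 was higher in Acomys at all 3 days, by 0.64 ± 0.18 (adjusted p = 0.0044), 0.61 ± 0.17 (adjusted p = 0.0024) and 0.59 ± 0.16 (adjusted p = 0.00273), with overlapping libraries in skin.

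Efemp2, the fibulin that carries lysyl oxidase to tropoelastin, was highest at day 7 in Acomys and did not differ between wound days in Mus by the test. Mus held 17.1, 19.2 and 19.3 CPM in skin, 105, 92.5, 133 and 104 at day 7 and 82.4, 93.4, 77.6 and 90.5 at day 14. Acomys held 39.9, 26.5, 34.8 and 25.0 CPM in skin, 143, 195, 212 and 163 at day 7 and 98.7, 121, 125 and 90.3 at day 14. All wound libraries were above skin in both species, and the wound days overlapped in Mus and not in Acomys. The rise from skin was 2.55 ± 0.18 (adjusted p = 3.08e-10) and 2.21 ± 0.18 (adjusted p = 4.13e-09) in Mus and 2.50 ± 0.16 (adjusted p = 2.67e-11) and 1.78 ± 0.16 (adjusted p = 1.82e-08) in Acomys. Between the wound days Acomys fell by 0.72 ± 0.15 (adjusted p = 4.96e-04) on the log2 scale and the Mus change was -0.34 ± 0.15 (adjusted p = 0.116). Differences of changes were -0.05 ± 0.23 (adjusted p = 0.891), -0.43 ± 0.23 (adjusted p = 0.18) and -0.38 ± 0.21 (adjusted p = 0.222) for day 7, day 14 and the wound days. Efemp2 levels were higher in Acomys skin (0.77 ± 0.18, adjusted p = 6.26e-04), at day 7 (0.71 ± 0.15, adjusted p = 2.21e-04) and at day 14 (0.34 ± 0.15, adjusted p = 0.0478). The last of these was lost without replicate 1, 3 or 4 of Mus day 14, or replicate 2 or 3 of Acomys day 14 (adjusted p = 0.0574 to 0.146), without the 3 muscle-poor libraries (0.127) and without small structural RNAs and Lars2 (0.053).

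Fbln2, a fibulin of basement membranes and elastic tissue, rose in every wound group. Mus skin held 313, 319 and 326 CPM, day 7 wounds 1023, 1501, 916 and 993 and day 14 wounds 1277, 1725, 1215 and 1141. Acomys skin held 222, 97.8, 196 and 104 CPM, day 7 wounds 1020.4, 806, 1132 and 877 and day 14 wounds 619, 441, 452 and 469. Mus wound days overlapped, and in Acomys all day 14 libraries lay below day 7 and above skin. The change from skin was 1.79 ± 0.25 (adjusted p = 3.88e-06) and 2.07 ± 0.26 (adjusted p = 1.30e-06) in Mus and 2.63 ± 0.24 (adjusted p = 3.96e-09) and 1.68 ± 0.23 (adjusted p = 5.67e-06) in Acomys. From day 7 to day 14 it was 0.27 ± 0.22 (adjusted p = 0.418) in Mus and -0.95 ± 0.22 (adjusted p = 0.00148) in Acomys, and these differed by -1.23 ± 0.31 (adjusted p = 0.00719), lost with the 3 muscle-poor libraries left out (adjusted p = 0.0523). The day 7 changes differed by 0.84 ± 0.33 (adjusted p = 0.0502), just outside the threshold, and passed it with DESeq2 (adjusted p = 0.0343). They also passed without small structural RNAs and Lars2 (adjusted p = 0.0431), and without replicate 2 of Mus day 7, or replicate 1 or 3 of Acomys day 0, or replicate 2 of Acomys day 7 (adjusted p = 0.0114 to 0.0451). The day 14 changes differed by -0.39 ± 0.33 (adjusted p = 0.411). As a level, Fbln2 was lower in Acomys skin (-1.04 ± 0.24, adjusted p = 6.36e-04) and at day 14 (-1.44 ± 0.23, adjusted p = 8.27e-06), with overlap at day 7 (-0.21 ± 0.22, adjusted p = 0.408).

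Fbln1, a fibulin that binds fibronectin and elastin, was the 1 gene of the shared table's 9 called lower in mouse wounds. Mus held 140.5, 148 and 103 CPM in skin, 100.6, 77.1, 71.1 and 68.0 at day 7 and 95.2, 74.4, 73.8 and 95.0 at day 14. Acomys held 95.7, 41.0, 97.3 and 51.3 CPM in skin, 78.7, 61.3, 49.1 and 52.5 at day 7 and 106, 80.8, 94.6 and 103 at day 14. Skin lay above both wound days in Mus, and in Acomys both wound days overlapped skin. The Mus change was -0.72 ± 0.24 (adjusted p = 0.0163) at day 7, lost without replicate 1 or 2 of Mus day 0 (adjusted p = 0.0546 to 0.0655). At day 14 it was -0.62 ± 0.24 (adjusted p = 0.042), lost without replicate 1 or 2 of Mus day 0, or replicate 2 or 3 of Mus day 14 (adjusted p = 0.0946 to 0.143) and without the 3 muscle-poor libraries (0.275). Each of these mouse calls depended on at least 1 skin library. In Mus the wound days differed by 0.10 ± 0.23 (adjusted p = 0.824). The Acomys change was -0.24 ± 0.23 (adjusted p = 0.371) at day 7 and 0.43 ± 0.23 (adjusted p = 0.143) at day 14, which passed without replicate 1 or 3 of Acomys day 0 (adjusted p = 0.0449 to 0.0485). Between the wound days Acomys rose by 0.67 ± 0.23 (adjusted p = 0.0203), lost without replicate 3 or 4 of Acomys day 7, or replicate 1 of Acomys day 14 (adjusted p = 0.051 to 0.0668). The day 14 changes differed by 1.05 ± 0.33 (adjusted p = 0.024), lost without replicate 1 or 2 of Mus day 0 (adjusted p = 0.0569 to 0.0657) and without the muscle-poor libraries (0.113). The other differences of changes were 0.48 ± 0.33 (adjusted p = 0.278) at day 7 and 0.57 ± 0.32 (adjusted p = 0.22) between the wound days. Fbln1 was lower in Acomys skin (-0.87 ± 0.24, adjusted p = 0.00344), and the levels overlapped at day 7 (-0.39 ± 0.23, adjusted p = 0.128) and day 14 (0.18 ± 0.23, adjusted p = 0.48).

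Efemp1, a fibulin known for its part in fascia, was highest at day 14 in Mus and at day 7 in Acomys. Mus held 79.7, 74.4 and 84.9 CPM in skin, 34.6, 26.6, 103 and 68.4 at day 7 and 192, 152, 139 and 266 at day 14. Acomys held 195, 124, 191 and 145 CPM in skin, 234, 463, 306 and 258 at day 7 and 189.7, 171, 226 and 195 at day 14. Mus day 14 lay above both other days, while in Acomys day 7 lay above both others and day 14 overlapped skin. In Mus the change was -0.45 ± 0.34 (adjusted p = 0.285) at day 7, where replicates 1, 2 and 4 were below all skin libraries and replicate 3 above them. Without replicate 3 it passed (-0.89, adjusted p = 0.0211), as it did with all 3 muscle-poor libraries left out (-0.90, adjusted p = 0.0173). By day 14 Mus had risen by 1.24 ± 0.35 (adjusted p = 0.00741) from skin and by 1.69 ± 0.33 (adjusted p = 7.96e-04) from day 7. In Acomys the day 7 rise was 0.94 ± 0.32 (adjusted p = 0.0138), lost without Acomys day 7 replicate 2, its highest library (adjusted p = 0.067). The Acomys change was 0.25 ± 0.31 (adjusted p = 0.56) from skin to day 14 and -0.69 ± 0.31 (adjusted p = 0.0805) between the wound days. The last passed in the Acomys table (adjusted p = 0.0114), with the other groups left out of the fit (0.0145) and without the 3 muscle-poor Mus libraries (0.0288). The wound-day changes of the species differed by -2.38 ± 0.45 (adjusted p = 7.84e-04). The day 7 changes differed by 1.39 ± 0.46 (adjusted p = 0.0246), lost without replicate 4 of Mus day 0, or replicate 2 of Acomys day 7 (adjusted p = 0.0504 to 0.0597). The day 14 changes differed by -0.98 ± 0.47 (adjusted p = 0.133), which passed with the muscle-poor libraries left out (-1.27, adjusted p = 0.0338) and with the other groups left out of the fit (adjusted p = 0.0161). The Acomys level was higher in skin (1.04 ± 0.35, adjusted p = 0.0134) and at day 7 (2.44 ± 0.33, adjusted p = 1.96e-06, 5.41-fold), and day 14 overlapped (0.06 ± 0.31, adjusted p = 0.877).

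**Figure D3:**
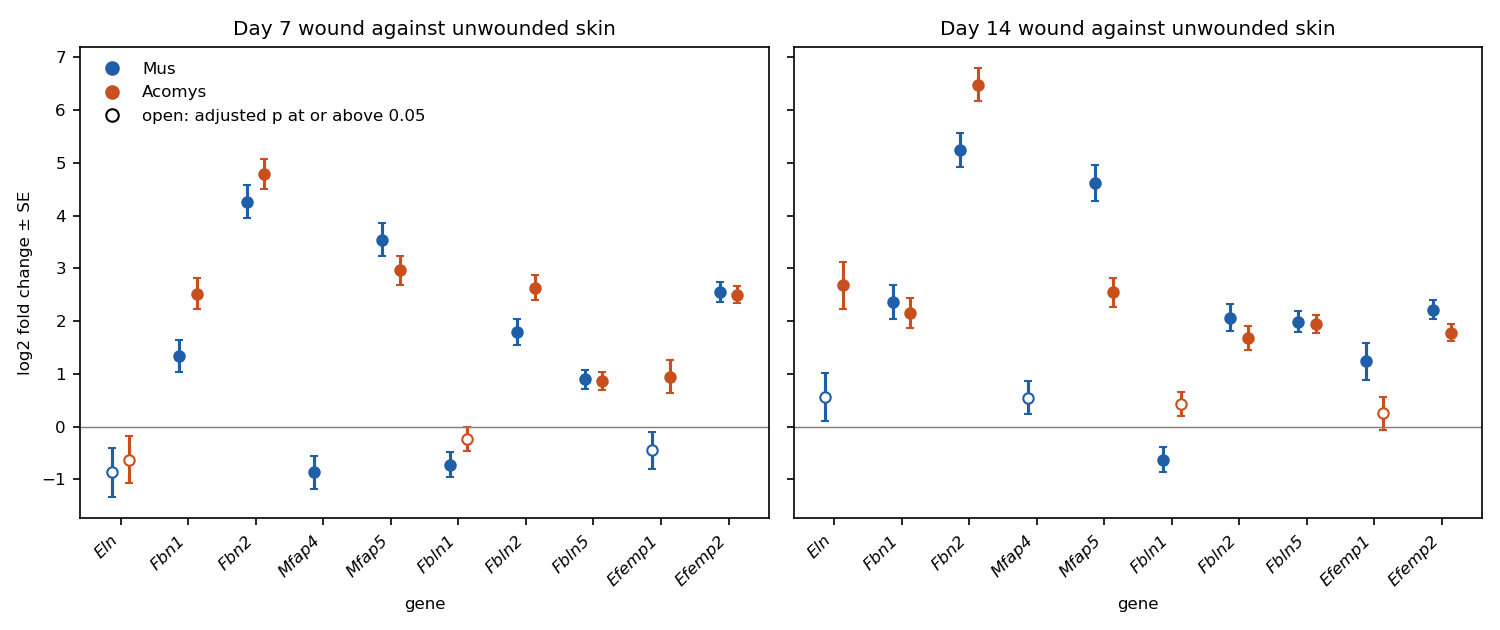
Log2 fold change from unwounded skin (points) with SE (bars) at days 7 and 14, by species, for the 9 genes of the shared table and Mfap4 in Mus. Fbn2 has the largest rise in both species at both days, and Eln in Acomys moves from below 0 at day 7 to 2.68 at day 14; open points did not pass the threshold.

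Counted over the 9 genes of the shared table, the wounds had more members called higher than lower in both species. In Mus at day 7, 6 were called higher and 1 lower, where 27.0% of all genes were called higher and 26.7% lower, and the members' median log2 change was 1.34 beside 0.00 over all genes. In Mus at day 14, 7 were called higher and 1 lower, beside 21.6% and 22.1% of all genes, with medians of 2.07 and 0.00. From day 7 to day 14 Mus had 6 higher and 0 lower, beside 9.60% and 12.5%. The 3 without a call were Fbln1, Fbln2 and Efemp2. In Acomys at day 7, 7 were called higher and 0 lower, beside 30.4% and 31.4%, with medians of 2.50 and -0.04. At Acomys day 14 there were again 7 higher and 0 lower, beside 18.9% and 20.0%, with medians of 1.94 and -0.03. These sets of 7 differ by 1 gene: Efemp1 was in the first and Eln in the second. Between the wound days Acomys had 4 higher (Eln, Fbn2, Fbln1 and Fbln5) and 2 lower (Fbln2 and Efemp2), beside 22.6% and 21.8%.

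Levels differed between the species for most members, as they did for most genes. In skin 3 were higher in Acomys (Fbln5, Efemp1 and Efemp2) and 5 lower (Eln, Fbn1, Fbn2, Fbln1 and Fbln2), beside 34.5% and 31.2% of all genes. At day 7 the same 3 were higher and 3 were lower (Eln, Fbn2 and Mfap5), beside 35.9% and 34.9%. At day 14, 2 were higher (Fbln5 and Efemp2) and 3 lower (Fbn1, Fbln2 and Mfap5), beside 38.1% and 34.6%. Calls in either direction took 65.7% of all genes in skin, 70.9% at day 7 and 72.7% at day 14, so a species difference in level does not set these genes apart. Skin fibroblast markers were also lower in Acomys (7869.5 to 24046 CPM against 64328 to 69498), and their part in these levels was not tested.

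The differences of changes, which compare the species without a constant gene-model difference, called fewer members. At day 7, 2 were larger in Acomys (Fbn1 and Efemp1) and 0 smaller, beside 17.1% and 18.7% of all genes. At day 14, 3 were larger in Acomys (Eln, Fbn2 and Fbln1) and 1 smaller (Mfap5), beside 13.1% and 12.0%. Between the wound days 1 was larger (Eln) and 4 were smaller (Fbn1, Fbln2, Efemp1 and Mfap5), beside 12.7% and 9.49%. Fbln5 and Efemp2 passed in none of the 3. The Mfap5 differences from skin also carry the share of its Acomys counts lost from the shared table, which was larger in skin. Smaller shifts of this share between days, in Efemp2, Fbn1, Fbn2, Fbln2 and Fbln5, were not corrected. The 3 comparisons share libraries.

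**Figure D4:**
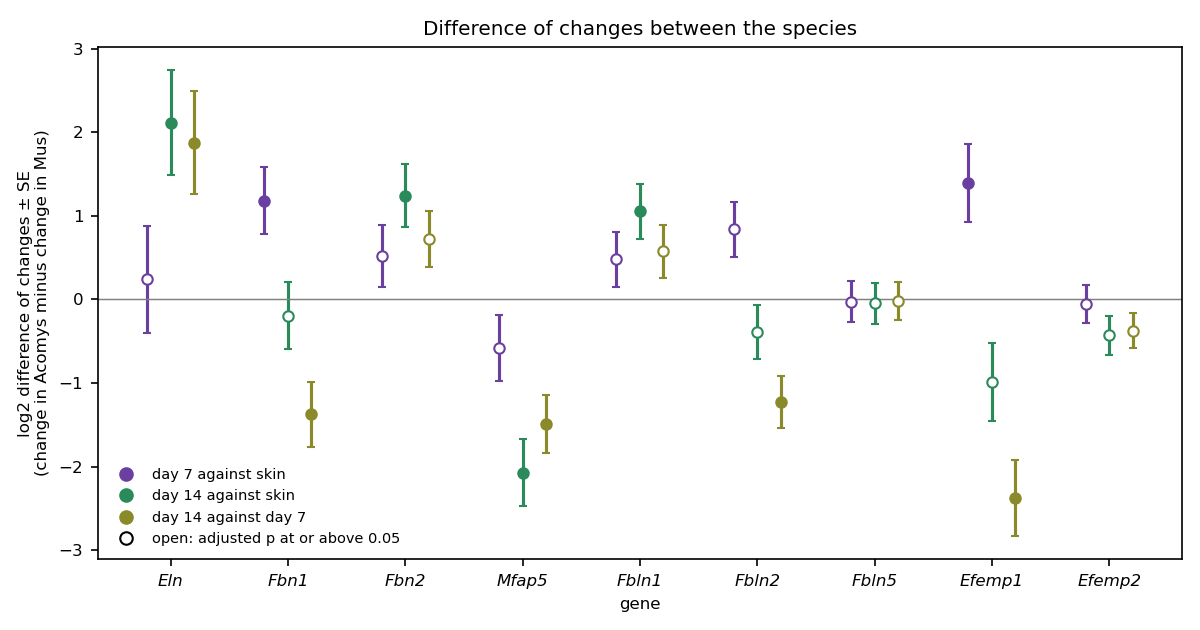
Change in Acomys minus change in Mus, on the log2 scale with SE, for the 9 genes of the shared table at day 7, day 14 and between the wound days. Positive values mean a larger change in Acomys; at day 14 Eln lies farthest above 0 and Mfap5 farthest below.

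Genes that assemble and crosslink the fibre were counted as a list of 27, of which 26 were tested and Fbln7 was not listed. In Mus, 13 higher and 7 lower were called at day 7, beside 27.0% and 26.7% of all genes, and 15 higher and 7 lower at day 14, beside 21.6% and 22.1%. In Acomys the calls were 14 higher and 6 lower at day 7, beside 30.4% and 31.4%, and 19 higher and 3 lower at day 14, beside 18.9% and 20.0%. At Acomys day 14 the list's median log2 change was 1.01 beside -0.03 over all genes and 0.54 at Mus day 14. For the differences of changes, 10 higher and 6 lower in Acomys were called at day 7, beside 17.1% and 18.7% of all genes, and 11 higher and 3 lower at day 14, beside 13.1% and 12.0%. Adamts17, a metalloproteinase linked to microfibrils, stood at 3.99 ± 1.09 CPM (SD, n = 4) in Acomys skin and at 271 ± 63.5 CPM (SD, n = 4) at day 14, a rise of 6.06 ± 0.27 (adjusted p = 4.87e-12), and its day 14 change exceeded that of Mus by 4.03 ± 0.36 (adjusted p = 1.43e-07). Loxl3, a lysyl oxidase, rose by 3.94 ± 0.18 (adjusted p = 1.32e-12) in Mus at day 7 and by 3.08 ± 0.18 (adjusted p = 2.83e-11) at day 14, and its day 14 change was smaller in Acomys, with a difference of -2.07 ± 0.23 (adjusted p = 2.17e-06). Ltbp2, a microfibril-bound latent TGF-beta binding protein family member, fell by 1.77 ± 0.47 (adjusted p = 0.00471) on the log2 scale in Mus at day 14 and its day 14 change was larger in Acomys by 3.16 ± 0.64 (adjusted p = 0.00132). Ltbp4, which aids tropoelastin deposition with Fbln5, changed by -1.79 ± 0.42 (adjusted p = 0.00133) at Mus day 7 and by -3.39 ± 0.42 (adjusted p = 9.09e-07) at Acomys day 7. Emilin1, which sits between core and microfibrils, rose by 3.69 ± 0.16 (adjusted p = 2.78e-13) at Acomys day 7 and by 2.25 (adjusted p = 4.03e-10) at Mus day 7, and these changes differed by 1.44 (adjusted p = 1.95e-05).

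The enzymes and partners closest to tropoelastin were added to this account after their values were seen. Lox, the lysyl oxidase bound by Efemp2, had 322, 389.6 and 306 CPM in Mus skin, 860.00, 789, 716 and 748 at day 7 and 575, 746, 435 and 517 at day 14. In Acomys it had 46.8, 31.3, 54.2 and 33.3, 595, 476, 429 and 527 and 406, 328, 301 and 277 CPM. Wound libraries lay above skin in both species, and all Acomys skin libraries lay below those of Mus. The change was 1.197 ± 0.19 (adjusted p = 1.90e-05) and 0.74 ± 0.19 (adjusted p = 0.00297) at Mus days 7 and 14 and 3.61 ± 0.19 (adjusted p = 3.06e-12) and 2.99 ± 0.19 (adjusted p = 1.38e-10) in Acomys. The differences of these changes were 2.42 ± 0.26 (adjusted p = 3.34e-07) and 2.24 ± 0.26 (adjusted p = 2.37e-06). Loxl1, which works with Fbln5, changed by 1.98 ± 0.25 (adjusted p = 2.38e-06) in Mus and 1.68 ± 0.23 (adjusted p = 6.26e-06) in Acomys at day 14, with a difference of -0.31 ± 0.33 (adjusted p = 0.529). Its changes did differ at day 7, by 0.86 ± 0.33 (adjusted p = 0.0454), and between the wound days, by -1.17 ± 0.31 (adjusted p = 0.01). Mfap2, a microfibril glycoprotein related to Mfap5, changed by 1.05 ± 0.25 (adjusted p = 0.00182) in Mus and 2.30 ± 0.23 (adjusted p = 1.84e-07) in Acomys at day 14, and this difference, 1.25 ± 0.33 (adjusted p = 0.00899), was opposite in sign to that of Mfap5. Lox was called higher in Acomys wounds at both days, whereas Eln was called higher at day 14 and not at day 7.

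Of 12 elastin-degrading proteases, 8 were tested (Mmp7, Elane, Prtn3 and Ctsg were not). In Mus 5 higher and 1 lower were called at day 7, beside 27.0% and 26.7% of all genes, and 7 higher and 1 lower at day 14, beside 21.6% and 22.1%. In Acomys 7 higher and 0 lower were called at each day, beside 30.4% and 31.4% at day 7 and 18.9% and 20.0% at day 14. Mmp12, the macrophage elastase, rose by 2.90 ± 0.76 (adjusted p = 0.00417) in Mus and by 5.20 ± 0.69 (adjusted p = 8.21e-06) in Acomys at day 14, where macrophage markers summed to 1435 to 1838 and 201 to 262 CPM against 489.5 to 572 and 78.9 to 170.4 in skin. Their part in the Mmp12 change was not tested, and the day 14 changes of the species differed by 2.30 (adjusted p = 0.0824). Ctsk, a cysteine protease that cuts elastin and collagen, fell in Mus, with -1.84 ± 0.20 (adjusted p = 8.66e-08) at day 7 and -1.39 ± 0.20 (adjusted p = 6.59e-06) at day 14. In Acomys it rose by 2.23 at day 14 (adjusted p = 1.51e-08), and the differences of changes were 4.89 ± 0.28 (adjusted p = 7.45e-11) at day 7 and 3.61 ± 0.27 (adjusted p = 2.70e-08) at day 14. Acomys held 57.6 ± 14.22 CPM (SD, n = 4) of Ctsk in skin and 271 ± 76.9 CPM (SD, n = 4) at day 14, and Mus 835 ± 69.4 CPM (SD, n = 3) and 319 ± 52.9 CPM (SD, n = 4). The proteases called at day 14 in the difference of changes were 2 higher and 1 lower, beside 13.1% and 12.0% of all genes, and at day 7 4 higher and 1 lower, beside 17.1% and 18.7%.

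Among 11 protease inhibitors, 10 were tested (Serpina1a was not). At Mus day 7, 4 higher and 5 lower were called, beside 27.0% and 26.7% of all genes, and at Mus day 14 3 higher and 1 lower, beside 21.6% and 22.1%. At Acomys day 7 the calls were 4 higher and 4 lower, beside 30.4% and 31.4%, and at Acomys day 14 3 higher and 3 lower, beside 18.9% and 20.0%. Timp1, an inhibitor of metalloproteinases, had a smaller change in Acomys, with differences of -1.58 ± 0.34 (adjusted p = 9.92e-04) at day 7 and -2.21 ± 0.34 (adjusted p = 8.54e-05) at day 14, while those of Timp2 were 2.16 ± 0.22 (adjusted p = 2.53e-07) and 1.0 ± 0.22 (adjusted p = 0.00232). Timp3, the inhibitor held in the matrix, changed by -1.92 ± 0.17 (adjusted p = 7.50e-09) in Mus and -2.80 ± 0.17 (adjusted p = 1.31e-11) in Acomys at day 7. In the differences of changes of the inhibitors 4 higher and 3 lower were called at day 7, beside 17.1% and 18.7% of all genes, and 2 higher and 3 lower at day 14, beside 13.1% and 12.0%. The 11 elastin receptor subunits and integrins were all tested. Of these, 7 higher and 3 lower were called at Mus day 7 and 7 higher and 3 lower at Mus day 14, and 8 higher and 2 lower at Acomys day 7 and 9 higher and 2 lower at Acomys day 14. The shares of all genes called higher and lower were, in the same order, 27.0% and 26.7%, 21.6% and 22.1%, 30.4% and 31.4% and 18.9% and 20.0%. Itga5, a fibronectin receptor subunit that binds Arg-Gly-Asp, rose by 2.08 ± 0.24 (adjusted p = 4.75e-07) in Mus and 1.40 ± 0.21 (adjusted p = 2.14e-05) in Acomys at day 14. Itga8, another such subunit, found in smooth muscle, fell in both, with -1.53 ± 0.24 (adjusted p = 2.10e-05) and -0.82 ± 0.20 (adjusted p = 0.00282). The differences of changes called 3 higher and 2 lower of these genes at day 7, beside 17.1% and 18.7% of all genes, and 1 higher and 0 lower at day 14, beside 13.1% and 12.0%, the 1 being Itgb6.

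**Figure D5:**
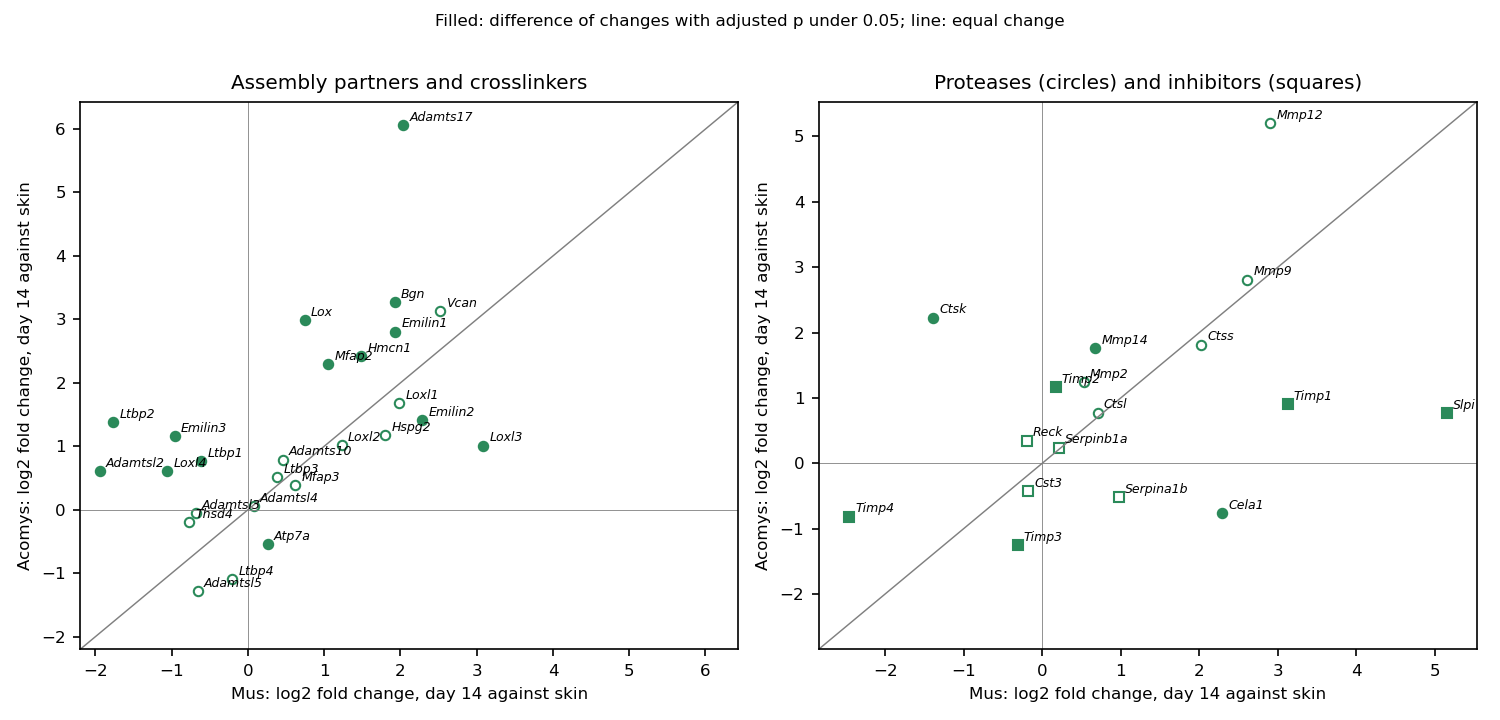
Day 14 log2 change from skin in Mus (horizontal axis) against that in Acomys (vertical axis) for assembly partners and crosslinkers (left) and for proteases and inhibitors (right), each point a gene, with the line of equal change drawn and A2m left out because it is at 0 in Mus skin. Adamts17, Lox and Ctsk lie above the line and Loxl3 and Timp1 below it; filled points passed the test of the difference of changes.

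Across the 23 libraries, after the mean of each species was subtracted from log2 CPM, the 5 genes whose pattern was most like that of Eln were Setd7 (Pearson's r = 0.878), Rpgrip1l (0.867), Gli1 (0.865), Ptch1 (0.861) and Mpped2 (0.856), out of 14513. Within the 11 Mus libraries alone their r was 0.833, 0.624, 0.538, 0.645 and 0.685, and within the 12 Acomys libraries 0.901, 0.971, 0.946, 0.925 and 0.912. The libraries share depth, tissue makeup and day, and these values are given as a description. Of the other members, Fbln1 (0.631, with 0.382 in Mus and 0.744 in Acomys) and Fbln5 (0.58, with 0.25 in Mus and 0.77 in Acomys) were nearest to Eln. Efemp2 (-0.042), Efemp1 (0.02) and Fbln2 (0.04) had the values nearest to 0. Within Mus their r was -0.279, 0.305 and 0.016, and within Acomys 0.082, -0.277 and 0.051. Efemp2 and Efemp1 thus had opposite signs in the species. Among the microfibril genes r was 0.879 for Fbn1 and Fbn2, 0.916 for Fbn1 and Mfap5 and 0.901 for Fbn2 and Mfap5. The fibulins were not alike: Fbln2 and Efemp2 had the highest r of any pair of members (0.936), whereas Fbln1 had -0.31 with Efemp2 and -0.018 with Fbn1, and Efemp1 had 0.363 with Fbln2 and 0.283 with Fbn2.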

How the data were processed

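RNA of 23 dorsal skin and wound libraries in 6 groups was analysed, taken with Trizol and RNeasy and sequenced as 2 x 150 paired reads from TruSeq libraries, per the labels' protocols. A pooled Acomys library was not analysed here. The shared table holds the authors' deposited counts, all whole and not normalized. How it was made, and which tool made it, is not given in the sources used here. The deposited table of each species holds the authors' expected counts, which were rounded to whole numbers. FastQC 0.11.4, Trimmomatic 0.32, RSEM 1.2.28, Bowtie2 and the mouse build mm9 are named, without roles, in the submitters' processing notes.

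From the shared table, 34 spike-in rows of 14548 were removed. Genes were filtered with filterByExpr by group, which all 14514 passed, the 9 members listed there among them. Library sizes were scaled by TMM, all 23 libraries were fitted together without a block, and 12 contrasts were tested with the two-sided quasi-likelihood F-test of edgeR 4.0.16 (robust; R 4.3.3, limma 3.58.1), with Benjamini-Hochberg adjustment over all genes of a contrast and 0.05 as the threshold. The SE of a log2 fold change comes from the F statistic. The common biological coefficient of variation was 0.186. The Mus table was fitted alike for Mfap4. On data simulated for these contrasts, 59 to 90% of genes changed 2-fold and 93 to 99% of those changed 4-fold were recovered, 0 in the wrong direction, and 2.25 to 6.63% of calls were false. Each simulation changed 100 genes 2-fold and 100 genes 4-fold, of 14514, in a single group. Far more genes were called in the real data, so these rates may not hold there. Depth was 5980683 to 9853153 counts per library, and no pair of libraries held identical values.

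The members, the 4 gene lists, the markers and the 3 muscle-poor libraries were chosen with earlier results of these data known. All members are named. Of each list, up to 2 called genes per direction could be named in a wound against skin comparison or a difference of changes, and for Eln the 5 most correlated genes. Alternatives were RLE size factors, no filter, the Wald test of DESeq2 1.42.0, only the groups compared, the replicate number as a block, the species tables, leaving out the 3 muscle-poor libraries, leaving out small structural RNAs and Lars2, and leaving out each library. A planned search of promoters for motifs was not made.

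The labels do not say that equal numbers mark 1 animal. In the shared table the residuals of same-numbered libraries correlated by -0.16 to 0.583, not all above 0.1, so the numbers were not taken as pairs. In the Mus table they correlated by 0.132 to 0.159 between days 0 and 7 and by 0.112 to 0.209 between days 0 and 14, over 3 pairs each, and the block changed no call of Mfap4.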

Additional observations from a re-analysis of the deposited data

Results flagged for a closer look

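The changes of some elastic fibre genes differed between the species by the test of the difference itself (edgeR's quasi-likelihood test, Acomys minus Mus, log2 scale). From skin to day 7 these were Fbn1, by 1.18 (adjusted p = 0.0253), and Efemp1, by 1.39 (adjusted p = 0.0246). From skin to day 14 they were Eln, by 2.11 (adjusted p = 0.0183), Fbn2, by 1.24 (0.0196), Fbln1, by 1.05 (0.024), and Mfap5, by -2.07 (7.83e-04). The Mfap5 value carries a share of Acomys counts, larger in skin than in wounds, that the shared table did not keep. The Acomys rise of Mfap5 at day 14 was 2.54 in the shared table and 1.97 in the Acomys table. The Mus rise was 4.62 in the shared table and 4.60 in the Mus table. Between the wound days they were Eln, by 1.87 (adjusted p = 0.0338), Fbn1, by -1.38 (0.0131), Fbln2, by -1.23 (0.00719), Efemp1, by -2.38 (7.84e-04), and Mfap5, by -1.49 (0.00423).

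One library stood apart from its group: Acomys day 14 replicate 1 had 619 CPM of Fbln2, and the other 3 libraries of that group had 441 to 469 CPM. Of 47 groups of 4 examined, 1 was flagged, and chance flags about 1 in 20.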

How the results depend on the processing

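All genes passed the filter on low counts, so leaving it out repeats the reported fit and is not counted here. Of 1710 log2 changes of the 9 genes recomputed under the other alternatives, 1618 kept their direction and their side of the threshold, 46 lost a call, 20 gained one and 26 changed sign, 0 of them called as reported. Without the 3 muscle-poor libraries the sign changed for Efemp1 between the species at day 14 (-0.24) and for the differences of changes of Efemp2 at day 7 (0.090), Fbln5 at day 14 (0.16) and Fbln5 between the wound days (0.18). With single libraries left out, the differences of changes ranged from -0.17 to 0.12 for Fbln5 at day 7, from -0.19 to 0.10 for Fbln5 at day 14, from -0.10 to 0.12 for Fbln5 between the wound days, from -0.15 to 0.082 for Efemp2 at day 7 and from -0.43 to 0.015 for Fbn1 at day 14. Efemp1 between the species at day 14 ranged from -0.061 to 0.28. The number of members called in the difference of changes was 2 at day 7 and 4 at day 14, and with single libraries left out it was 1 to 3 and 2 to 4. Under the other alternatives every such count stayed within 1.5 times. The causes were not tested.

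With the replicate number as a block, the difference of changes at day 7 became 0.0072 for Fbln5 and passed for Fbln2 (0.88, adjusted p = 0.00799), and no other call of a member changed. In Mus day 0 against days 7 and 14, 3 of 3 libraries correlated best with their own number in each comparison, in Mus day 7 against day 14 2 of 4 did, and in Acomys 1, 1 and 2 of 4 did. These correlations are a hint from the data, not from the design. The submitters' names for the libraries also repeat the same non-consecutive numbers at every day of a species, apart from the removed Mus day 0 replicate. Such numbers may mark shared animals, but the labels do not say what they mark. Lengths of gene models and the makeup of the tissue differ between the species and were not modelled.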
